A study of Mus musculus with 12 samples.

Results

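The comparison described here is the difference between the effects of 2 knockin alleles on cerebellar RNA. It is the 118Q knockin minus its wild type littermates, less the 11Q knockin minus its own littermates, on the log2 scale. All 12 of the 12 arrays of the series enter it, assigned to 4 groups of 3 by their titles. The groups are MPI 118Q/118Q knockin mice, wild type littermates of that line, MPI 11Q/11Q knockin mice, and wild type littermates of the 11Q line. Every mouse was on a C57BL/6 background and 6 weeks old, whole cerebellum was taken, and each array is 1 mouse. Both knockin groups were homozygous for an altered Cacna1a allele, the mouse model of spinocerebellar ataxia type 6, and the alleles differ by name in the glutamine tract they encode, 118 or 11 residues long. Setting the 11Q line against the 118Q line asks what the long tract does beyond a knocked-in tract of normal length. The labels do not say which litters the mice came from. The p-values treat the mice as independent and could be too small if mice of a litter are alike.

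Cacna1a encodes the pore of P/Q-type calcium channels, which carry calcium into Purkinje cells and into many presynaptic terminals. An expanded CAG repeat in the human gene causes spinocerebellar ataxia type 6, in which Purkinje cells are lost late. Purkinje cells are the only output of the cerebellar cortex, and their firing depends on sodium, potassium and calcium channels and on calcium release from internal stores. The tract of the 118Q allele is longer than those found in patients, and the 11Q allele carries a tract of normal length.

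The labelled tissue was borne out by its markers. Purkinje cell genes Pcp2 and Pvalb and granule cell genes Neurod1 and Gabra6 read between 10.28 and 10.72 on all 12 arrays. Pairs of arrays correlated at 0.980 to 0.995 over all genes. Choroid plexus transcripts varied widely between mice, with Ttr, the plexus transthyretin gene, between 5.26 and 11.93. Some technical measures moved with the groups. The 18S ribosomal RNA signal was lower in the 3 118Q knockin arrays than in the 9 others, and genes with a long genomic span were relatively low in those arrays. Their values stand with the control measures at the end.

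No gene passed the test of the difference. Of 12672 genes, 0 (0%) had a Benjamini-Hochberg adjusted p below 0.05 in limma, and the smallest adjusted p was 0.132. At an unadjusted p below 0.05 there were 1392 genes (11%), 1025 higher (8.09%) and 367 lower (2.9%), where 5% of the genes is 634. The median difference of all genes was 0.078, and 62.3% of genes were above 0. The precision was set by the number of arrays: the median standard error of the difference was 0.197, against 0.139 for the effect within a line. Within the lines, 24 genes passed for the 118Q knockin (0.189%), 10 higher (0.0789%) and 14 lower (0.11%), and 0 for the 11Q knockin, where the smallest adjusted p was 0.419 and 536 genes (4.23%) had an unadjusted p below 0.05. A call in one line and none in the other is not a difference between them, and the test of that difference is the one that no gene passed.

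The count of 0 held in most alternatives but not in all. With array weights by limma's default estimate, which stopped before it converged, 612 genes passed, 410 higher and 202 lower. With weights estimated gene by gene, an alternative added after that count had been seen, 12 passed, 5 higher and 7 lower. Without 118Q knockin replicate 1, 12 genes passed, among them Fgf14, Tuba8, Slc1a6 and Cacna2d2. Without 118Q wild type replicate 2, 4 passed, namely Fn1, Phxr4, 2310067E19Rik and C130075A20Rik, of which all but Fn1 are named after their values were seen.

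Of the 1025 higher genes 55.7%, and of the 367 lower genes 62.9%, had the 3 118Q knockin arrays beyond all 9 others. These genes were chosen by the difference on the same arrays, so part of both shares was fixed by the choice. Over all genes the 3 118Q knockin arrays lay beyond the 9 others in 1620 (12.8%), 1114 above (8.79%) and 506 below (3.99%). The same count was 48 (0.379%) for the 118Q littermates, with 17 above (0.134%) and 31 below (0.245%). It was 350 (2.76%) for the 11Q knockin, with 90 above (0.71%) and 260 below (2.05%), and 60 (0.473%) for the 11Q littermates, with 23 above (0.182%) and 37 below (0.292%). Among the 1025 genes higher in the difference, the 118Q effect was the larger of the 2 in size in 78.3%, with a median of 0.34, against a median 11Q effect of -0.15. Among the 367 lower genes it was the larger in 86.6%, with a median of -0.44, against 0.065 for the 11Q effect. The 118Q effect was also the larger over all genes, with a median size of 0.156 against 0.104 for the 11Q effect. Full separation from littermates in opposite directions was rarer: 102 genes (0.805%) were above in the 118Q and below in the 11Q knockin, and 29 (0.229%) the reverse. Over all genes the effects of the lines, which share no array, correlated with a Spearman rho of 0.162, given as a description since genes are not independent.

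**Figure D1:**
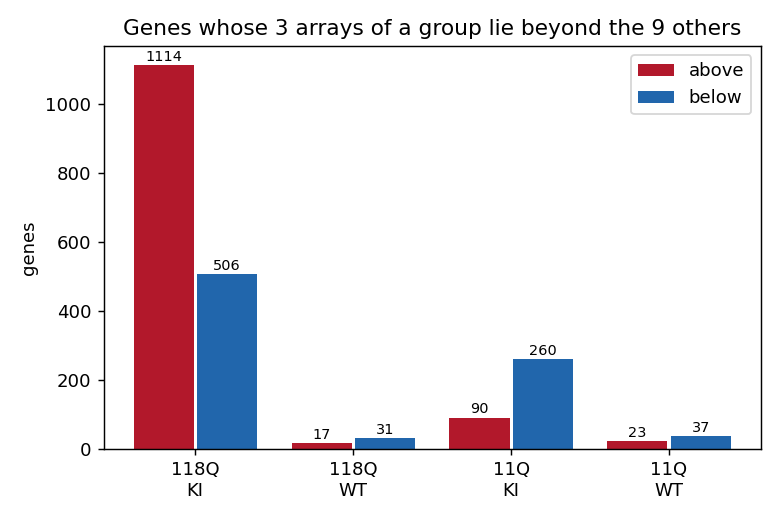
Number of genes (y axis) whose 3 arrays of a group lie above (red) or below (blue) all 9 other arrays, for the 4 groups on the x axis. The 118Q knockin bars stand at 1114 and 506, against 17 and 31 for its littermates, 90 and 260 for the 11Q knockin and 23 and 37 for its littermates.

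Cacna1a read 5.67, 5.65 and 5.50 in 118Q knockin mice, against 6.09, 5.54 and 6.19 in their littermates. The 11Q knockin mice had 6.28, 6.42 and 6.17, and their littermates 6.36, 6.25 and 6.48. Within each line the knockin and littermate ranges overlapped, and the 118Q knockin arrays lay below all 11Q line arrays. The difference was -0.26 ± 0.22 (SE; adjusted p = 0.688), and it was 0.064 with the 18S covariate, -0.46 without 118Q wild type replicate 2 and -0.14 without 118Q wild type replicate 3. Its remaining bright probe sets gave -0.36 and -0.041. The arrays do not read the repeat itself.

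Among genes with a low difference, the smallest p belonged to Fgf14, a fibroblast growth factor homologous factor that regulates voltage-gated sodium channels and is mutated in an inherited ataxia. Fgf14 read 7.01, 5.98 and 6.48 in 118Q knockin mice, against 8.09, 7.99 and 8.31 in their littermates. In the 11Q line it was 8.49, 8.52 and 8.40 in knockin mice, against 8.56, 8.42 and 8.52 in littermates. The 118Q knockin arrays were below all others, and the 11Q groups overlapped. The difference was -1.61 ± 0.28 (SE; adjusted p = 0.134), made up of a fall of 1.64 on the log2 scale in the 118Q line (adjusted p = 0.00521) and -0.028 in the 11Q line. Another probe set of the gene gave -1.73 and the dimmest gave -0.12.

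Tuba8, an alpha tubulin that is strong in Purkinje cells, showed the same arrangement. Tuba8 read 5.49, 4.89 and 5.06 in 118Q knockin mice, against 6.41, 6.24 and 6.40 in their littermates. Values of 6.01, 6.27 and 6.24 were found in 11Q knockin mice, against 6.10, 6.17 and 6.34 in littermates. No 118Q knockin array reached the lowest of the 9 others. The difference was -1.17 ± 0.21 (SE; adjusted p = 0.14), and the 118Q effect alone was a fall of 1.20 (adjusted p = 0.00532). Kcnq1ot1, the long noncoding RNA of the imprinted Kcnq1 locus, read 3.59, 3.64 and 4.06 in 118Q knockin mice, against 4.80, 4.38 and 5.04 in their littermates. It read 5.20, 5.26 and 5.37 in 11Q knockin mice, against 5.13, 4.83 and 5.15 in theirs, so that the 118Q knockin arrays were below all others and the 11Q knockin arrays above all others. Its difference was -1.22 ± 0.24 (SE; adjusted p = 0.249), and its probe sets ranged from -0.29 to -1.22.

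**Figure D2:**
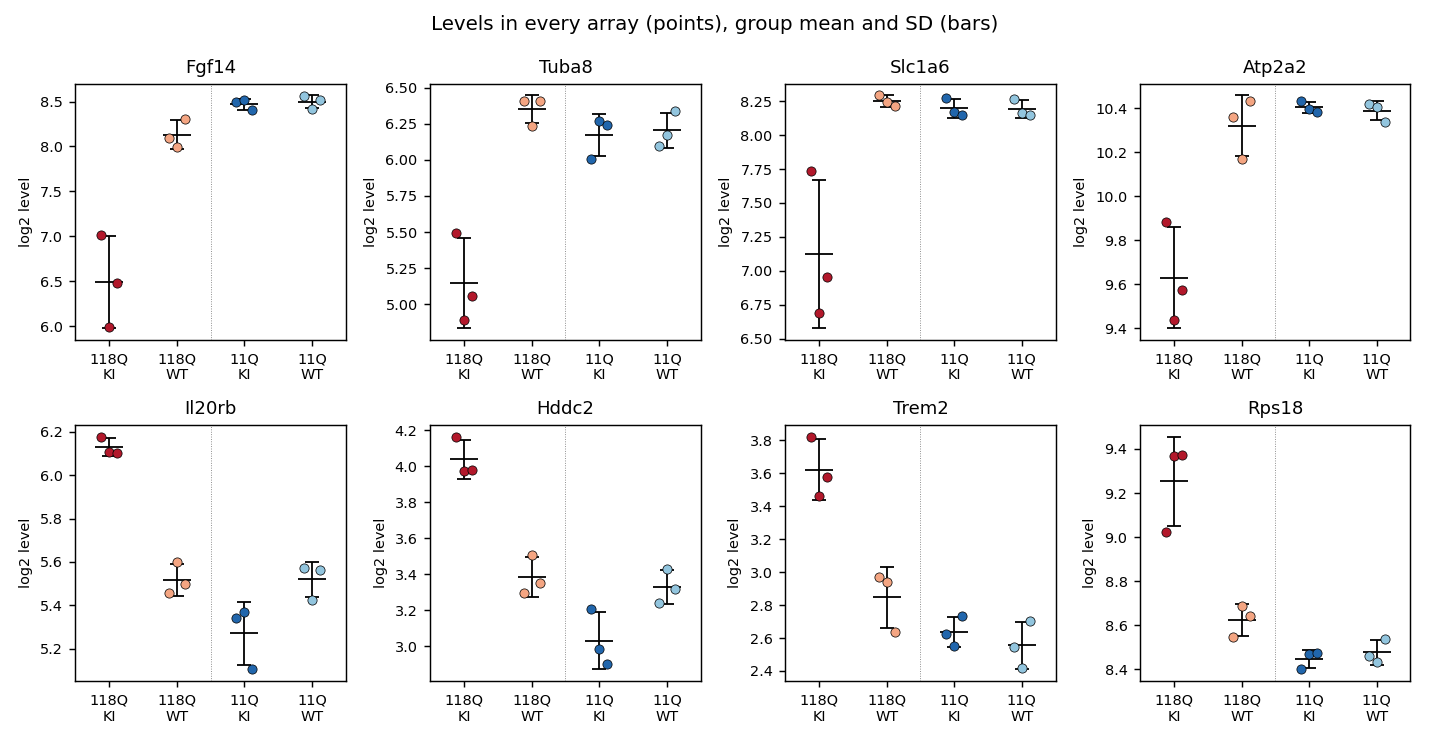
Log2 level (y axis) of 8 genes in every array (points) of the 4 groups, with the group mean and SD of 3 arrays (bars). Fgf14, Tuba8, Slc1a6 and Atp2a2 lie lowest in the 3 118Q knockin arrays, and Il20rb, Hddc2, Trem2 and Rps18 lie highest there.

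The remaining genes named for a low difference were Ptpn14, a tyrosine phosphatase (-0.74), Vmn1r58, a vomeronasal receptor (-0.94), Ank2, an ankyrin of the neuronal membrane skeleton (-0.60), Pou5f2 (-0.73), Fn1, fibronectin (-1.10), Atp2a2, which pumps calcium into the endoplasmic reticulum (-0.71), Ptchd4 (-0.67), Hspa4, a heat shock protein (-0.72), and Eng, endoglin (-0.97). Their adjusted p-values were 0.249 to 0.346. In all of them except Vmn1r58 and Eng the 118Q knockin arrays were below the 9 others. For Hspa4 the other probe sets gave -0.68, -0.0017 and 0.25.

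On the high side, Il20rb had the smallest p, a gene for a subunit of interleukin receptors. Il20rb read 6.18, 6.11 and 6.10 in 118Q knockin mice, against 5.46, 5.60 and 5.50 in their littermates. Knockin mice of the 11Q line had 5.34, 5.37 and 5.11, against 5.57, 5.43 and 5.56 in their littermates. The 118Q knockin arrays were above all others. In the 11Q line the knockin arrays were all below their littermates, so both lines added to the difference of 0.86 ± 0.14 (SE; adjusted p = 0.132).

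Hddc2, an HD-domain protein, was arranged in the same way. Hddc2 read 4.17, 3.97 and 3.98 in 118Q knockin mice, against 3.29, 3.51 and 3.35 in their littermates. It was 3.21, 2.99 and 2.90 in 11Q knockin mice and 3.24, 3.43 and 3.31 in their littermates. The difference was 0.95 ± 0.16 (SE; adjusted p = 0.132), with 0.66 in the 118Q line (adjusted p = 0.0465) and -0.30 in the 11Q line. Nckap1l, a component of the WAVE actin-regulating complex of blood-derived cells and microglia, also separated in opposite directions. Nckap1l read 2.24, 2.19 and 2.46 in 118Q knockin mice, against 1.89, 1.82 and 1.82 in their littermates. The 11Q knockin mice had 1.51, 1.64 and 1.66, and their littermates 2.05, 1.88 and 2.08. All 3 118Q knockin arrays were above all others and all 3 11Q knockin arrays below all others, giving a difference of 0.85 ± 0.15 (SE; adjusted p = 0.134). These levels are dim: the filter removed probe sets with a mean under 1.58, and the lowest 11Q knockin array read 1.51.

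Of the other genes named for a high difference, Kif1c, a kinesin motor, gave 0.87, Arid5a, an RNA-binding regulator of inflammatory transcripts, 0.97, Fbxo2, a ubiquitin ligase subunit for glycoproteins, 0.76, Use1, a SNARE of the endoplasmic reticulum, 0.78, and Tppp3, a tubulin polymerization protein, 0.69. In these genes and in Olfml1 (1.20) the 118Q knockin arrays were above the 9 others. Fhit, a dinucleoside hydrolase, gave 1.39, Mri1, an enzyme of methionine salvage, 1.12, and Tpd52l1 0.89. In Fhit, Mri1 and Tpd52l1 the 11Q effect was larger in size than the 118Q effect, at -0.76, -0.75 and -0.60, against 0.63, 0.37 and 0.29. Fhit read 3.95, 3.48 and 3.07 in 118Q knockin mice, against 2.96, 2.85 and 2.80 in their littermates, and 2.04, 2.22 and 1.91 in 11Q knockin mice, against 2.82, 2.48 and 3.16 in theirs. The knockin arrays thus lay above littermates in one line and below them in the other.

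**Figure D3:**
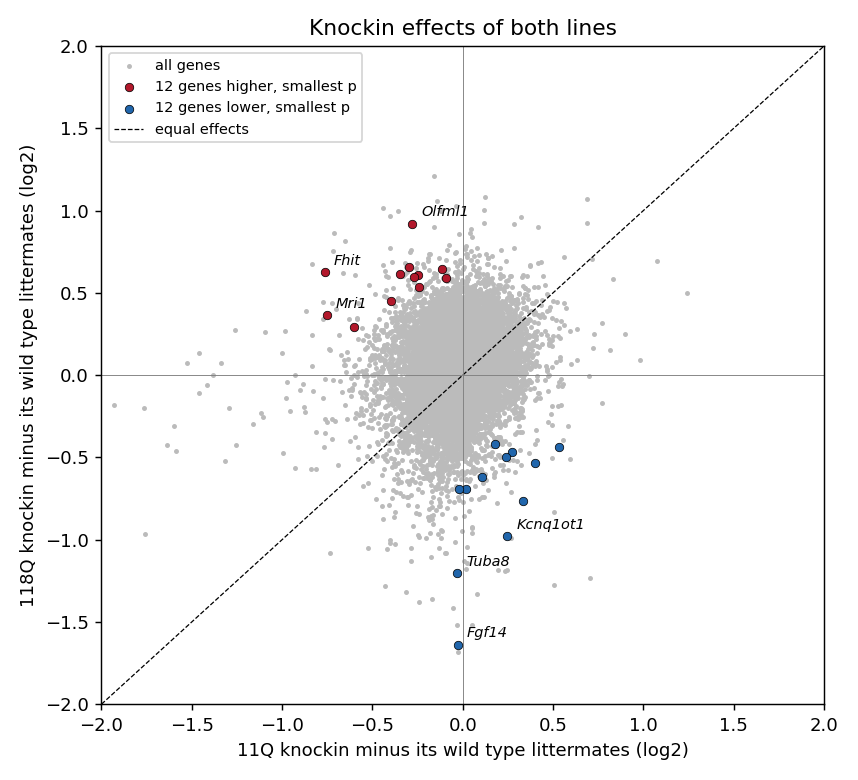
Effect of the 118Q knockin (y axis) against effect of the 11Q knockin (x axis), each as log2 knockin minus littermates, for all genes (grey) and for the 12 named genes with the smallest p in each direction of the difference. The named higher genes lie left of the line of equal effects at 11Q effects from -0.76 to -0.093, the named lower genes reach 118Q effects of -1.64, and 12 genes lie outside the axes.

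Genes tied to ataxia and expressed in Purkinje cells were lower as a list. Their median difference was -0.46 over 17 measured of 26 listed genes, against 0.078 for all genes, with a median 118Q effect of -0.38 and a median 11Q effect of 0.0045. In whole cerebellum, fewer cells of a type and less RNA per cell cannot be told apart. This list, like those below, was chosen with earlier results of these data known, so its shares are no independent evidence. At an unadjusted p below 0.05, 10 were lower (58.8%, against 2.9% of all genes) and 0 higher, and in 9 (52.9%, against 3.99% of all genes) the 118Q knockin arrays lay below all others. None of the 17 passed after adjustment. Besides Fgf14 they included Slc1a6, the glutamate transporter of Purkinje cells. Slc1a6 read 7.73, 6.69 and 6.95 in 118Q knockin mice, against 8.29, 8.25 and 8.21 in their littermates. In the 11Q line it was 8.27, 8.17 and 8.15 in knockin mice, against 8.27, 8.16 and 8.15 in littermates. The 118Q knockin arrays were below the 9 others, with replicate 1 nearest to them, the remaining groups overlapped, and the difference was -1.13 ± 0.28 (SE; adjusted p = 0.346).

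Among other members of that list, Cacna2d2, an auxiliary subunit of calcium channels, gave -0.80, Scn8a, the sodium channel of fast-firing neurons, -0.61, Cacna1g, a T-type calcium channel, -0.80, and Calb1, the calcium buffer calbindin, -0.74. The 18 measured calcium channel subunits had a median of -0.17, with 0 higher at an unadjusted p below 0.05. Lower were 3 (16.7%, against 2.9% of all genes), Cacna2d2, Cacna1g and Cacnb2 (-0.64). With the gene span trend removed that median was -0.047. Sodium channels and their regulators had a median of -0.19 over 11 genes, with 2 lower (18.2%, against 2.9% of all genes), Fgf14 and Scn8a, and 0 higher. It was -0.33 without 118Q knockin replicate 1, -0.11 without 11Q wild type replicate 2, and turned to 0.12 with the 18S covariate. Potassium channels and partners had a median of -0.061 over 30 genes (-0.14 to 0.0054 with single arrays left out). Of these, 2 were higher (6.67%) and 1 lower (3.33%), near the 8.09% and 2.9% of all genes. Kcnn2, a calcium-activated potassium channel, gave 0.63, and Dpp10, a partner of A-type channels, -0.72.

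The wider list of Purkinje cell markers had a median difference of -0.44 over 43 measured of 50 genes, with 37 below 0. At an unadjusted p below 0.05, 16 were lower (37.2%, against 2.9% of all genes) and 0 higher, and in 11 (25.6%, against 3.99%) the 118Q knockin arrays were below all others. The median deviation of its genes from their means was -0.091, -0.52 and -0.46 in 118Q knockin mice, against 0.093, 0.092 and 0.20 in their littermates, and 0.13, 0.15 and 0.059 in 11Q knockin mice, against 0.13, 0.090 and 0.15 in theirs. In this score the 118Q knockin arrays were below all others, replicate 1 least so, and without that replicate the list's median was -0.57. The members differed among themselves. Mtss1, an actin regulator, gave -0.72, Stk17b, a protein kinase, -0.74, and Dner, a Purkinje cell surface protein, -1.06, whereas the bright markers Pcp2, Pvalb and Pcp4 gave 0.0077, -0.12 and -0.12. Calb1, Dner, Pcp2, Pvalb and Pcp4 are named after their values were seen.

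Genes of inositol trisphosphate signalling and calcium stores, which shape the calcium transients of Purkinje cells, had a median of -0.32 over 31 of 35 genes. Of these, 11 were lower (35.5%, against 2.9% of all genes) and 2 higher (6.45%, against 8.09%) at an unadjusted p below 0.05. In 11 (35.5%, against 3.99% of all genes) the 118Q knockin arrays were below all others. Atp2a2 read 9.88, 9.44 and 9.57 in 118Q knockin mice, against 10.36, 10.17 and 10.44 in their littermates. Values of 10.43, 10.40 and 10.38 were found in 11Q knockin mice, against 10.42, 10.41 and 10.34 in littermates. Its lowest values were those of the 118Q knockin, the other groups overlapped, and the difference was -0.71 ± 0.17 (SE; adjusted p = 0.346). Its next brightest probe sets gave -0.70 each. Inpp4a, a phosphoinositide phosphatase, gave -0.61, Homer3, a postsynaptic scaffold of Purkinje cells, -0.82, and Atp2a3, another calcium pump of the reticulum, -0.98. Several of these genes stand in the Purkinje marker list as well.

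Other neuronal lists had medians nearer to 0 than the Purkinje list. Their counts at an unadjusted p below 0.05 stand beside 2.9% lower and 8.09% higher of all genes. Cerebellar interneuron markers had a median of -0.25 over 18 genes, with 4 lower (22.2%) and 0 higher, among them Kit (-0.82), the stem cell factor receptor, and Slc32a1 (-0.85), the vesicular GABA transporter, which Purkinje cells share. Slc32a1 gave -0.57 without 118Q knockin replicate 2. Granule cell markers had a median of -0.021 over 27 genes (-0.061 to 0.029 with single arrays left out), with 2 lower (7.41%) and 0 higher. Synaptic vesicle genes had a median of -0.11 over 43 genes (-0.071 without 11Q wild type replicate 3), with 3 lower (6.98%) and 0 higher, and polyglutamine disease genes -0.070 over 11 (-0.16 to -0.017 with single arrays left out), with 1 lower (9.09%), Atxn2 (-0.42), the ataxin of another polyglutamine ataxia.

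Endothelial and mural cell markers were also lower, with a median of -0.38 over 33 of 36 genes, 12 lower (36.4%, against 2.9% of all genes) and 0 higher at an unadjusted p below 0.05, and 7 (21.2%, against 3.99%) with the 118Q knockin arrays below all others. The list's median deviation was -0.072, -0.38 and -0.24 in 118Q knockin mice, against 0.18, 0.023 and 0.19 in their littermates, and -0.049, 0.17 and 0.16 in 11Q knockin mice, against 0.018, 0.010 and 0.19 in theirs. Flt1 read 4.24, 3.82 and 3.82 in 118Q knockin mice, against 5.08, 4.55 and 5.10 in their littermates. Knockin mice of the 11Q line had 4.93, 5.19 and 4.95, against 5.13, 4.90 and 5.06 in their littermates. Flt1, which binds vascular endothelial growth factor, was below all others in the 118Q knockin, with a difference of -0.94 ± 0.23 (SE; adjusted p = 0.346). Eng, a coreceptor of the endothelium, took its difference from both lines, at -0.44 in the 118Q and 0.53 in the 11Q line. Acta2, smooth muscle actin, gave -1.17. Meningeal fibroblast and matrix genes had a median of -0.25 over 29 genes (-0.15 without 118Q wild type replicate 3), with 5 lower (17.2%) and 0 higher, Col1a1 at -0.57.

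Microglia markers were higher as a list, with differences above 0 in 27 genes and below 0 in 4. Their median difference was 0.40 over 31 measured of 40 genes, made of 0.34 in the 118Q and 5.7e-05 in the 11Q line, with 7 higher (22.6%, against 8.09% of all genes) and 0 lower at an unadjusted p below 0.05 and 11 (35.5%, against 8.79%) with the 118Q knockin arrays above all others. The microglia markers Csf1r and Tmem119, named after their values were seen, overlapped within the 118Q line. Csf1r read 6.69, 6.69 and 6.72 in 118Q knockin mice, against 6.50, 6.62 and 6.77 in their littermates. For Tmem119 these values were 2.63, 2.90 and 3.04, against 3.05, 2.63 and 2.44. Trem2 read 3.82, 3.46 and 3.58 in 118Q knockin mice, against 2.97, 2.94 and 2.63 in their littermates. It was 2.62, 2.55 and 2.73 in 11Q knockin mice and 2.55, 2.42 and 2.70 in their littermates. Trem2, the microglial lipid receptor, was above all others in the 118Q knockin, and the difference was 0.69 ± 0.18 (SE; adjusted p = 0.346), beside a rise of 0.77 in the 118Q line alone (adjusted p = 0.0465).

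Tyrobp read 6.05, 5.36 and 5.78 in 118Q knockin mice, against 4.50, 5.06 and 4.55 in their littermates. The 11Q knockin mice had 4.60, 4.43 and 4.21, and their littermates 4.42, 4.32 and 4.60. Tyrobp, the signalling adaptor of Trem2, was thus above the 9 others in each 118Q knockin array, and the difference was 1.06 ± 0.27 (SE; adjusted p = 0.346). C1qa and C1qb, subunits of the first complement component made by microglia, gave 0.62 and 0.72, and dimmer probe sets of C1qb gave 0.11 and 0.57. The list of disease-associated and phagocytic microglia genes had a median of 0.25 over 23 genes, with 7 higher (30.4%, against 8.09% of all genes) and 0 lower. Cd68, a lysosomal protein of phagocytes, gave 0.96 and Lgals3, galectin 3, 0.94. Without 118Q knockin replicate 1 that list's median was 0.085.

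Inflammatory lists had medians between -0.19 and 0.19. Their counts at an unadjusted p below 0.05 stand beside 8.09% higher and 2.9% lower of all genes. Cytokines and targets of NF-kB had a list median of 0.11 over 17 measured of 37 genes, with 1 higher (5.88%) and 0 lower, Il18 at 0.42. It lay between -0.034 and 0.15 with single arrays left out and turned below 0 without 118Q knockin replicate 3 or 11Q knockin replicate 1. Toll-like receptor and MyD88 genes had a median of 0.19 over 21 genes with 0 in either direction (0.11 without 11Q knockin replicate 1, 0.10 without 11Q wild type replicate 2). Complement genes had a median of 0.11 over 9 with 2 higher (22.2%), C1qa and C1qb, and it lay between -0.018 and 0.19 with single arrays left out, turning without 118Q wild type replicate 2. Interferon-stimulated and antigen presentation genes had a median of -0.19 over 36 genes, with 0 higher and 3 lower (8.33%). Without 11Q knockin replicate 1, whose list score was 0.32 against -0.14 and -0.033 in the other 11Q knockin arrays, that median was -0.035. The lower genes were Ifitm3, a membrane protein that restricts virus entry (-0.72), H2-D1, a class I histocompatibility antigen (-1.26), and Rsad2, viperin (-0.54). H2-D1 read 7.19, 6.38 and 5.39 in 118Q knockin mice, against 7.02, 7.98 and 6.93 in their littermates, and 8.24, 7.89 and 7.84 in 11Q knockin mice, against 7.84, 7.78 and 7.54 in theirs. The groups of the 118Q line overlapped, the difference was -0.79 without 118Q knockin replicate 3, and the other probe sets ranged from -2.25 to 1.03.

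Among macroglia, oligodendrocyte and myelin genes had a median of 0.32 over 30 of 34 genes, with 6 higher (20%, against 8.09% of all genes) and 0 lower, from 0.21 in the 118Q and -0.17 in the 11Q line. The list's scores in 118Q knockin mice, 0.16 to 0.32, overlapped those of their littermates, -0.27 to 0.31. Its median difference was 0.18 without 118Q wild type replicate 3, 0.18 without 11Q knockin replicate 1 and 0.10 with the 18S covariate. Plekhb1 gave 0.69, Mobp, a myelin protein, 0.69 (0.43 without 118Q wild type replicate 3), and Ermn, a cytoskeletal protein of myelinating cells, 0.72, whereas Mbp, myelin basic protein, gave -0.13 and is named after its value was seen. Astrocyte and Bergmann glia markers had a median of 0.14 over 33 genes (0.093 without 118Q knockin replicate 1), with 3 higher and 0 lower, a share of 9.09% that is near the 8.09% of all genes, Clu, Ttyh1 and Apoe at 0.44, 0.54 and 0.43. Of the list, 25 were above 0 and 8 below. Clu had 0.089 in the 118Q and -0.35 in the 11Q line. The marker Slc1a3, named after its values were seen, read 8.38, 7.95 and 8.10 in 118Q knockin mice. Its values in their littermates were 8.11, 8.68 and 8.82. Reactive astrocyte genes had a median of -0.066 over 26 (-0.16 to -0.041 with single arrays left out). Of these, 2 were lower (7.69%, against 2.9% of all genes), H2-D1 and Emp1.

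**Figure D4:**
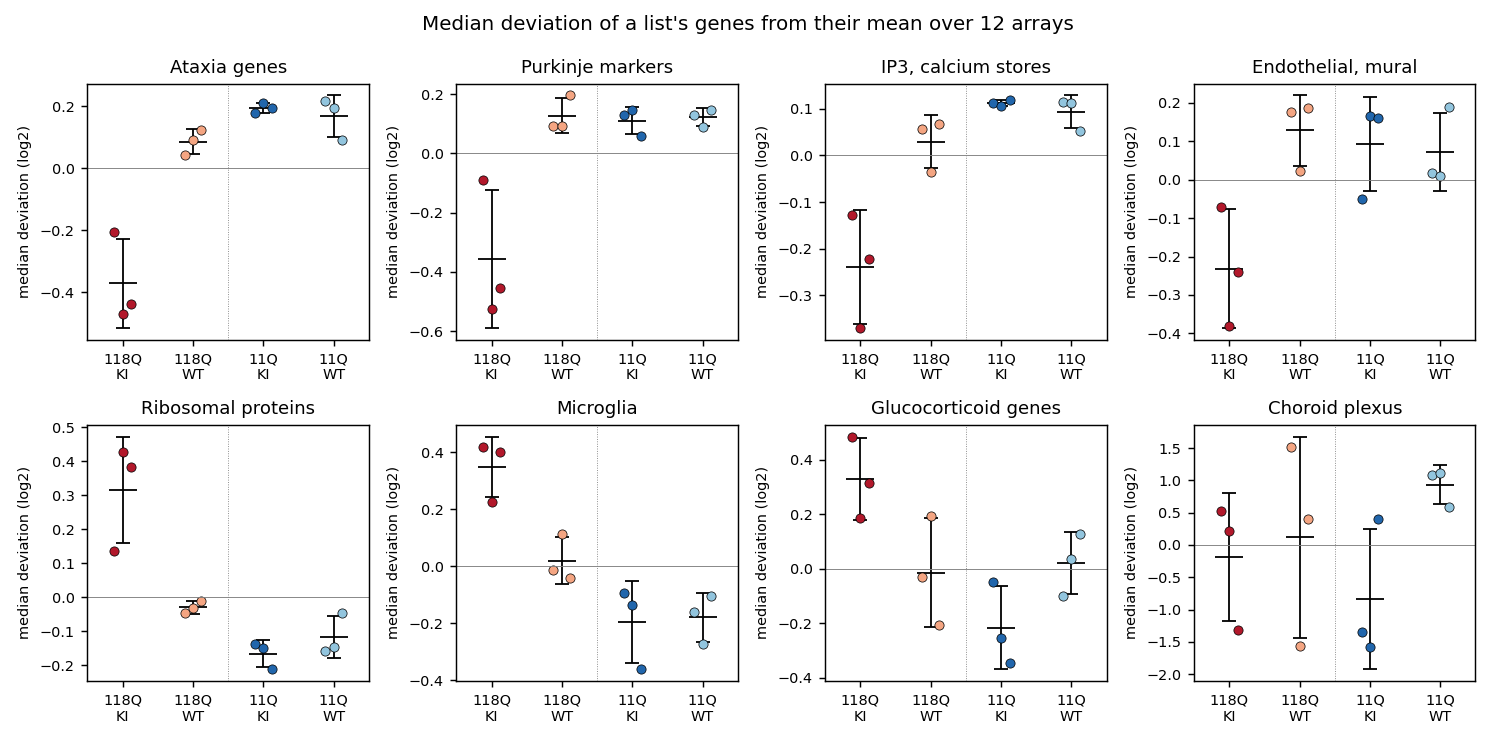
Median deviation of a list's genes from their own means over 12 arrays (log2, y axis) in every array (points) of the 4 groups, with group mean and SD (bars), for 8 lists. The 118Q knockin arrays lie lowest in the 4 upper lists and highest for ribosomal proteins and microglia, while choroid plexus values spread from -1.57 to 1.52 across groups.

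Cytosolic ribosomal protein genes, which build both ribosomal subunits, had differences above 0 in all 44 measured of 80 listed genes, with a median of 0.40, 0.33 in the 118Q and -0.056 in the 11Q line. At an unadjusted p below 0.05, 30 were higher (68.2%, against 8.09% of all genes) and 0 lower, and in 31 (70.5%, against 8.79%) the 118Q knockin arrays were above all others. Many of these transcripts start with a C followed by pyrimidines, an element through which their translation is regulated. The 30 bases around the RefSeq start (GRCm38.p6), 20 before and 10 from it on, are shown for the 4 members of highest difference that have it, to show that shared start; capitals mark the C at the start and the 4 bases after it, each C or T, on the transcribed strand.
Rpl14: cggcagggcgggccctctctCTTCTcgctg
Rps18: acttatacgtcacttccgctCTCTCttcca
Rpl35: gaagtcggccccgccctttcCTCTTtctct
Rps27: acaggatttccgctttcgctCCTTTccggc

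These stretches lie for Rpl14 at chr9:120571497-120571526 (plus strand), for Rps18 at chr17:33955656-33955685 (minus strand), for Rpl35 at chr2:39005122-39005151 (minus strand), for Rps27 at chr3:90213639-90213668 (minus strand). Of the 39 ribosomal protein genes with a RefSeq promoter here, 9 (23.1%) had this start, against 673 of 27025 promoters of all genes (2.49%). The median difference was 0.51 in members with it and 0.38 in members without it. The match is a description of letters at an annotated start, and the array values are RNA levels.

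Rps18 read 9.02, 9.37 and 9.37 in 118Q knockin mice, against 8.54, 8.69 and 8.64 in their littermates. In the 11Q line it was 8.40, 8.47 and 8.47 in knockin mice, against 8.46, 8.43 and 8.54 in littermates. Rps18, of the small subunit, was above all others in the 118Q knockin, and the difference was 0.66 ± 0.15 (SE; adjusted p = 0.346). Its other bright probe sets gave 0.61 and 0.40. Rps27 gave 0.59, Fau, the ubiquitin-like fusion precursor of a small-subunit protein, 0.51, Rpl35 0.60 and Rpl14 0.68, Rpl35 and Rpl14 being named for their start. The list was nearest to its littermates in 118Q knockin replicate 1: its median deviation was 0.14, 0.43 and 0.38 in 118Q knockin mice, against -0.046, -0.033 and -0.010 in their littermates, and -0.14, -0.15 and -0.21 in 11Q knockin mice, against -0.16, -0.15 and -0.046 in theirs. Ribosomal protein genes have many near-identical pseudogenes, so a probe set may read more than 1 copy.

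Oxidative phosphorylation subunits were higher with a smaller median of 0.24 over 71 of 75 genes. At an unadjusted p below 0.05, 12 were higher (16.9%, against 8.09% of all genes) and 0 lower. In 23 (32.4%, against 8.79% of all genes) the 118Q knockin arrays were above all others. Ndufa6, of NADH dehydrogenase, gave 0.49 and Uqcr10, of the cytochrome bc complex, 0.53. Antioxidant and NRF2 target genes had a median of 0.23 over 35, with 5 higher (14.3%, against 8.09% of all genes) and 0 lower. Gpx4, which reduces lipid peroxides, was at 0.44 and Gstm5, a glutathione transferase, at 0.51.

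Protein folding and degradation lists had medians between 0.011 and 0.15, against 0.078 for all genes. Proteasome subunits had a median of 0.15 over 35 (0.067 to 0.19 with single arrays left out), with 3 higher and 0 lower, a share of 8.57%, near the 8.09% of all genes. Cytosolic chaperones had a median of 0.011 over 39, which turned below 0 in 7 of 26 alternatives, endoplasmic reticulum folding and stress genes (0.020 to 0.12 with single arrays left out) 0.053 over 35, and lysosomal genes 0.075 over 37 (0.027 to 0.11 with single arrays left out). BCL2 family and caspase genes had 0.11 over 28, with Bcl2l11, a proapoptotic member, at 0.82 and Birc6, an inhibitor of caspases, at -0.54 (-0.32 without 118Q wild type replicate 3). Each of these lists had at most 3 members in either direction at an unadjusted p below 0.05.

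Glucocorticoid-responsive genes, which answer to a stress hormone, had a median of 0.46 over 31 of 35 genes, with 29 above 0, 10 higher (32.3%, against 8.09% of all genes) and 0 lower at an unadjusted p below 0.05, and medians of 0.34 in the 118Q and -0.12 in the 11Q line. The median was 0.70 without 11Q knockin replicate 1. List scores overlapped within both lines, with 0.19 to 0.48 in 118Q knockin mice, against -0.21 to 0.19 in their littermates. Arrdc2 read 4.20, 3.73 and 4.11 in 118Q knockin mice, against 3.46, 3.60 and 2.70 in their littermates. Values of 2.71, 2.21 and 2.46 were found in 11Q knockin mice, against 2.86, 3.62 and 3.04 in littermates. Arrdc2, an arrestin-domain protein, was above all others in the 118Q knockin, and the 11Q knockin arrays were below their littermates. The difference was 1.48 ± 0.35 (SE; adjusted p = 0.346). Sgk1, a kinase induced by corticosteroids, gave 1.26 (0.39 and -0.87 in the 118Q and 11Q lines), and Cebpd, a transcription factor, 1.47.

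Immediate early genes, induced by neuronal activity, had a median of 0.29 over 30 of 39 genes. Of these, 5 were higher (16.7%, against 8.09% of all genes) and 0 lower. Their medians were 0.29 in the 118Q and -0.079 in the 11Q line. Their scores overlapped within both lines, with 0.18 to 0.34 in 118Q knockin mice, against -0.32 to 0.19 in their littermates. Nr4a1, an orphan nuclear receptor, gave 0.92 and Per1, a clock gene that is also induced by activity, 0.85. Per1 gave 0.49 without 118Q wild type replicate 3 and 0.0015 with the 18S covariate (limma, adjusted p = 0.999). Circadian clock genes as a list had a median of 0.096 over 21 (-0.055 to 0.13 with single arrays left out). Only Per1 was higher (4.76%, against 8.09% of all genes). The labels used here give no time of day for the dissection.

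Choroid plexus genes had the largest median of the lists, 1.35 over 24 of 27 genes, and spread widely between mice. The 11Q line gave the larger part, with medians of -0.20 in the 118Q and -1.76 in the 11Q line, and 2 genes were higher (8.33%, against 8.09% of all genes) and 0 lower at an unadjusted p below 0.05. Ttr read 11.79, 11.39 and 8.66 in 118Q knockin mice, against 11.89, 6.25 and 11.82 in their littermates. Knockin mice of the 11Q line had 7.68, 5.26 and 11.79, against 11.93, 11.88 and 11.89 in their littermates. Low arrays were found in the 118Q knockin, the 118Q littermates and the 11Q knockin, and none among the 11Q littermates. Otx2, a homeobox gene, gave 0.88 and Ecrg4 2.86 ± 1.46 (1.83 without 118Q wild type replicate 2). The list's median was -0.10 with Ttr as covariate, and lay between 0.64 and 2.11 when single arrays were left out, lowest without 118Q wild type replicate 2, highest without 118Q knockin replicate 3, and 2.03 without 118Q wild type replicate 1.

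Genes next to Cacna1a on the chromosome were described apart. The 20 measured genes on either side had a median of 0.12, with 7 higher and 0 lower of 40 at an unadjusted p below 0.05, against 62 higher and 16 lower of 683 genes of the chromosome. Gadd45gip1 read 5.38, 5.69 and 5.15 in 118Q knockin mice, against 5.83, 5.08 and 5.43 in their littermates. It was 4.70, 4.86 and 4.79 in 11Q knockin mice and 5.88, 5.59 and 5.79 in their littermates. Gadd45gip1, a mitochondrial ribosome protein, was below all others in the 11Q knockin and overlapped in the 118Q line, giving 0.93 ± 0.25 (SE; adjusted p = 0.346), while its other, dimmer probe set gave -0.16. Mri1 and Trmt1, a transfer RNA methyltransferase, had 11Q effects of -0.75 and -0.47. For these genes the 118Q effects were smaller in size, at 0.37 (Mri1), 0.11 (Trmt1) and -0.043 (Gadd45gip1). Trmt1 is named after its values were seen.

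The direct comparisons behind the difference were unequal. Between the knockins, 1732 genes passed (13.7%), 1276 higher in 118Q than in 11Q (10.1%) and 456 lower (3.6%). Between the littermates of the lines 0 passed (0%), with a smallest adjusted p of 0.387 and 378 genes (2.98%) at an unadjusted p below 0.05. Slc6a13, a GABA transporter of the meninges, and Mir1931 stood among the named genes of the littermate comparison, at 0.51 and -1.41. These comparisons share arrays with the difference and are no independent evidence of it.

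Control measures were read beside these results. The 18S signal was 9.23, 8.63 and 8.56 in 118Q knockin arrays, against 9.78, 9.66 and 10.32 in their littermates, and 10.10, 10.27 and 10.36 in 11Q knockin arrays, against 10.24, 10.54 and 10.53 in theirs. All 118Q knockin values were below the rest. Its difference was -0.92 (exact permutation of genotype within each line, two-sided p = 0.135, adjusted over 11 control measures 0.371; the smallest p of the 400 arrangements is 0.005). The polyadenylated spike-in phe differed by 1.27 (exact p = 0.02, adjusted 0.22), with 3.91 to 4.26 in 118Q knockin arrays, against 3.18 to 3.74 in their littermates, and 1.38 to 2.30 in 11Q knockin arrays, against 2.12 to 3.27 in theirs. The spike-in lys was also above all others in the 118Q knockin arrays, with a difference of 0.74 (exact p = 0.13), and dap and thr differed by 0.71 and 0.66 with overlapping ranges. The 3' minus 5' signal of Gapdh, a measure of RNA quality, was -0.16 to -0.12 in 118Q knockin arrays, against -0.11 to -0.031 in their littermates, and 0.054 to 0.13 in 11Q knockin arrays, against -0.090 to 0.092 in theirs, a difference of -0.12 (exact p = 0.11). The 118Q knockin arrays were below all others in it. The same measure for Actb differed by -0.11, and the 4 hybridisation spikes by -0.11 to 0.20. None of the 11 passed after adjustment, where the smallest p was 0.22, and their part in the results was not tested. The correlation over genes of an array's deviation with gene span averaged -0.293 in 118Q knockin and 0.0362 in 118Q wild type arrays, and 0.153 in 11Q knockin and 0.195 in 11Q wild type arrays.

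The list medians were recomputed with either measure. With the 18S signal as covariate the medians were -0.17 for Purkinje markers, -0.22 for ataxia genes, -0.17 for endothelial markers, 0.44 for microglia and 0.30 for ribosomal proteins. With the span trend removed they were -0.40, -0.27, -0.36, 0.34 and 0.31 in the same order, beside -0.44, -0.46, -0.38, 0.40 and 0.40 without either. Over all 34 lists the 18S covariate turned 5 medians, moved 10 toward 0 by over 1.5 times and 10 away from it by over 1.5 times. The median turned for sodium channels (0.12), potassium channels (0.0037), polyglutamine disease genes (0.030), reactive astrocyte genes (0.10) and clock genes (-0.017). It was -0.074 for inositol trisphosphate and calcium store genes, -0.092 for interneuron markers, -0.062 for meningeal genes, 0.092 for astrocyte markers, 0.10 for oligodendrocyte genes and 0.12 for oxidative phosphorylation. Farther from 0 were phagocytic microglia genes at 0.51, complement genes at 0.32, proteasome subunits at 0.25 and choroid plexus genes at 3.07. With the span trend removed it was -0.047 for calcium channels, -0.18 for inositol trisphosphate and calcium store genes, -0.050 for synaptic vesicle genes, -0.018 for potassium channels, 0.021 for lysosomal genes and 0.17 for phagocytic microglia genes, and it turned for granule cell markers (0.026) and chaperones (-0.049). Of 156 named genes the 18S covariate turned 9, moved 48 toward 0 and 15 away from it by over 1.5 times. Among those moved toward 0 it left Fgf14 at -1.02, Tuba8 at -0.69, Slc1a6 at -0.66, Fn1 at -0.59, Atp2a2 at -0.38, Flt1 at -0.49, Acta2 at -0.54, Mtss1 at -0.26, Stk17b at -0.33, Cacna2d2 at -0.48, Dpp10 at -0.33, Atp2a3 at -0.56, Kit at -0.51, Slc32a1 at -0.22, Plekhb1 at 0.29, Ermn at 0.41, Mobp at 0.076, Uqcr10 at 0.24 and Gpx4 at 0.18. Since the 18S signal separates the 118Q knockin from the other groups, the covariate takes away part of the genotype as well, and signal and genotype cannot be told apart.

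**Figure D5:**
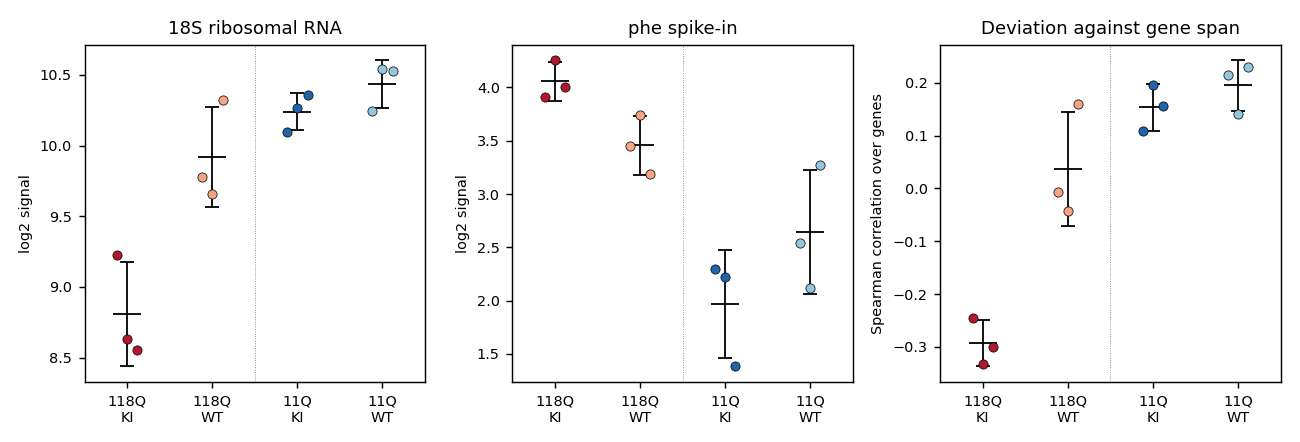
Log2 signal of 18S ribosomal RNA and of the phe spike-in, and the Spearman correlation over genes between an array's deviation and gene span (y axes), in every array (points) of the 4 groups with mean and SD (bars). The 118Q knockin arrays are lowest for 18S, at 8.56 to 9.23, and for the span correlation, at -0.332 to -0.245.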

How the data were processed

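Total RNA of 12 mouse cerebella was measured on expression arrays. The deposited log2 values per probe set were made by the authors with RMA, per the submitters' processing notes; the RMA settings were not given in these sources. The arrays do not share 1 distribution of values (medians 2.21 to 2.38, maxima 11.81 to 11.85 in 118Q knockin arrays and 11.96 to 12.13 in the others), so another step may have followed RMA. No further normalization was applied, and the number of arrays limits the precision.

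Of 45101 probe sets, 34958 had 1 gene symbol in the array annotation, 932 several and 9211 none listed. The dimmest 40% were removed (log2 mean under 1.58), and the brightest probe set of a symbol was kept, leaving 12672 genes. limma 3.58.1 in R 4.3.3 fitted 1 mean per group over all arrays (8 residual and 4.61 prior degrees of freedom), two-sided, with Benjamini-Hochberg adjustment over all genes. Control measures were tested by exact permutation. The steps were tested on simulated data. Lists are described by counts and medians, with no set test.

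Named are Cacna1a, 12 genes in each direction of the difference, up to 4 members of each of 34 lists by smallest unadjusted p, and up to 3 in each direction for the effects of the lines and the littermate comparison; clones were passed over. Members and lists were chosen with earlier results of these data known. Alternatives changed the filter, the probe set rule, scaling, the variance model, thresholds, covariates, replicate blocks and the arrays included; array weights estimated gene by gene were added after seeing the data.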

Additional observations from a re-analysis of the deposited data

How the results depend on the processing

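The count of 0 genes in the difference was kept by every alternative except array weights (612), array weights estimated gene by gene, added after seeing the data (12), calls by unadjusted p below 0.05 plus 1.5-fold (440), and single arrays left out (0 to 12; 12 without 118Q knockin replicate 1, 4 without 118Q wild type replicate 2). Genes at an unadjusted p below 0.05 numbered 3196 and 2518 with the 2 kinds of weights, 2139 for probe sets one by one, and 955 to 2018 with single arrays left out; quantile normalization gave 784 higher and 493 lower, or 61.4% higher, against 73.6% before. Genes with 118Q knockin arrays beyond the others numbered 2539 for probe sets one by one and 1661 to 3595 with single arrays left out, highest without 118Q knockin replicate 1. Leaving out an array can only keep or raise that count, so its range is no test of it. The 24 genes of the 118Q effect became 150 (lowest 60% removed), 10 (centred), 43 (quantile), 200 (intensity trend), 3131 and 1529 (weights), 391 (adjusted p below 0.1), 315 (fold), 0 (18S covariate), 6 (span trend), 3 (without both wild type replicates 3) and 4 to 707 with single arrays left out (707 without 118Q knockin replicate 1, 44 without 118Q wild type replicate 2, 4 to 7 without any other array but 11Q wild type replicate 3, which gave 14). Knockin against knockin gave 6111 and 4738 (weights), 2892 (adjusted p below 0.1), 870 (fold), 0 (18S), 1117 (span) and 319 to 2274 with single arrays left out (319 without 118Q knockin replicate 3, 624 without replicate 2, 607 to 721 without any 11Q knockin array). The 11Q effect gave 100 (fold) and 0 to 1, and the littermate comparison 32 (fold), 2 (weights), 1 each with 18S, with Ttr and without both wild type replicates 3, and 0 to 1. Within a line 1 of 6 same-numbered pairs correlated over 0.1 (-0.171 to 0.193), which cannot show whether the mice were paired by replicate number. Across all groups 5 of 18 pairs with the same replicate number correlated over 0.1 (-0.259 to 0.447). The highest was that of 118Q and 11Q wild type replicate 3. With the number as a block within a line the difference had 0 calls and the 118Q effect 5; with a block across the 4 groups these were 0 and 7. The difference of named genes turned for Cpne8 (mean of probe sets -0.077, without both wild type replicates 3 -0.035, and -0.061 to 0.49 with single arrays left out) and Cxcl1 (mean of probe sets 0.057). With the 18S covariate it turned for Cacna1a (0.064), Mir1931 (0.56), Scn4b (0.12), Lgi2 (0.13), Serping1 (0.073), Laptm4b (0.19), Rorb (-0.038), Birc6 (0.062) and Hbb-b2 (-0.22). It turned for S100a9 (-0.30) and S100a8 (-0.31) with Ttr, for Hbb-b2 with the span trend removed (-0.022) and with single arrays left out (-0.11 to 0.27), and for S100a8 with single arrays left out (-0.085 to 0.55). Means over probe sets moved Kif1c to 0.53, Slc32a1 to -0.43, Bcl2l11 to 0.51 and Emp1 to -0.035. Causes were not tested. The blood cell list gave no value with the lowest 60% removed. With 3 arrays a group the median standard error was 0.197. Differences well above that size can go uncalled, as Fgf14 did at -1.61. In simulated data with gene spreads taken from these arrays, changes were set in the 118Q knockin arrays. Of changes of 0.5, 4.48% were recovered at an adjusted p below 0.05, of changes of 1, 64.2%, and of changes of 2, 100%. Besides these, 8 unchanged genes were called. The simulated noise was independent for each gene and array, without shifts that an array's genes share, such as those of choroid plexus genes. These shares therefore do not give the power in the real arrays, where Comp at -2.07 and Ecrg4 at 2.86 went uncalled.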

Other observations

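Further genes were named for the effect of a single line. Cenpb, a centromere protein, was higher by 1.00 in the 118Q line (limma, adjusted p = 0.0316) and by 0.12 in the 11Q line, a difference of 0.88. Myl6, a myosin light chain, had 0.77 in the 118Q line (limma, adjusted p = 0.0465) and 0.28 in the 11Q line, a difference of 0.49. None of the following passed a test. Comp, a cartilage matrix protein, had 0.53 in the 118Q and 2.60 in the 11Q line, and Mau2, a cohesin loader, 0.50 and 1.24. Il33, a cytokine, had -0.42 in the 118Q and -1.26 in the 11Q line. Mau2 had a difference of -0.74, and of -0.49 without 118Q wild type replicate 2. Blood cell genes had a median difference of 0.15 over 4 of 7 genes (0.014 to 0.28 with single arrays left out), with 1 lower at an unadjusted p below 0.05, Alas2, the heme synthesis enzyme of red cells (-0.95).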
